A study of Mus musculus with 6 samples.

Results

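Fc gamma receptors bind the constant part of IgG and let macrophages take up and respond to antibody-coated particles. The 5 genes described here, Fcgr1, Fcgr2b, Fcgr3, Fcgr4 and the neonatal Fc receptor gene Fcgrt, were taken by name from a table of 54532 mouse genes, and all 5 were among the 8882 genes with enough signal to be tested. RNA sequencing was performed on macrophages of 3 wild type (WT) mouse libraries, numbered 1, 2 and 3, and 3 progranulin knockout (PGRN KO) libraries, numbered 4, 5 and 6. The PGRN KO cells lack Grn, the gene for the secreted glycoprotein progranulin. Macrophages were labelled as coming from the peritoneal cavity, and 2000000 cells per well were given living Candida albicans for 6 h, 1 fungal cell for each macrophage. Every library, including the WT libraries that are titled as controls, received the fungus, so no uninfected level is given here. PGRN KO mice came from the Jackson Laboratory on a C57BL/6 background and WT C57BL/6 mice from a university in Chongqing, so the origin of the colonies and the genotype cannot be told apart. The study's methods elsewhere name bone marrow-derived macrophages and another ratio of fungus to cells, and the labels were followed. The sources do not say whether libraries of a genotype came from separate animals or cultures, and p-values measure only the spread between these libraries.

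Mouse macrophages use Fc gamma receptors of opposing kinds. The activating receptors Fcgr1, Fcgr3 and Fcgr4 have no signalling motif of their own and pair with the adaptor chain Fcer1g, whose tyrosine motif (ITAM) is phosphorylated by Src family kinases and then recruits Syk. Fcgr2b, the inhibitory receptor, carries an inhibitory tyrosine motif (ITIM) in its tail and recruits the lipid phosphatase SHIP1, encoded by Inpp5d. Fcgrt differs from the others: its product pairs with beta-2-microglobulin inside the cell and returns IgG from endosomes to the surface.

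The sequence that sets the inhibitory receptor apart is the ITIM of Fcgr2b. In the longest open reading frame of its GENCODE transcripts, which has 340 codons, the motif fills codons 317 to 322, and it is shown in capitals within coding bases 928 to 987, 5′ to 3′.
Fcgr2b ITIM: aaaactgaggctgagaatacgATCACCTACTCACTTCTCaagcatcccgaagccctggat
The loose residue pattern used in the search also matched in the frames of Fcgr1, Fcgr4 and Fcgrt, and the match printed here is the known motif in the tail of Fcgr2b.

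Outside their tails, Fcgr3 and Fcgr2b are close relatives, which bears on how well reads can be assigned to them. Their reading frames were identical at 83.7% of 787 aligned bases, against 51.0% to 63.3% for the other pairs of members. The longest stretch that Fcgr3 and Fcgr2b share without a difference has 129 bases, from coding base 263 to 391 of Fcgr3 and from 278 to 406 of Fcgr2b, all of it shown in lower case.
Fcgr3 and Fcgr2b shared: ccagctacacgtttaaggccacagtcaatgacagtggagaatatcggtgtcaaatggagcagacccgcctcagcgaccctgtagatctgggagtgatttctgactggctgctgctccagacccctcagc
Of all 31-base words in the transcripts of Fcgr3, 13.4% also occurred in Fcgr2b. Of the words of Fcgr2b, 8.15% occurred in another gene. A read of the sequenced length can extend past such a stretch, but how the authors' counting treated reads that fit both genes was not tested, and the levels of Fcgr3 and Fcgr2b are uncertain to that extent. Fcgr1 shared no such word with another gene.

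The knockout was checked first. Grn was present at 323, 337 and 325 FPKM (fragments per kilobase of gene model, scaled to the size of the library) in the WT libraries and at 0.0166, 0 and 0.0167 FPKM in the PGRN KO libraries, where 1, 0 and 1 fragments were counted. PGRN KO replicate 6 stood apart from the other PGRN KO libraries. Its correlation with them was at most 0.972, against at least 0.991 between WT libraries, and its deviation from the mean of all libraries fell with gene length (Spearman's rho across genes of -0.47, against 0.15 to 0.24 in the other 5 libraries). Short gene models therefore read high in this library and long ones low, a measured fact that touches every member, since the model of Fcgr4 has 1256 bases and that of Fcgr2b 5790 bases. The difference of each receptor between genotypes, and that of its ratio to Fcgr2b, is given also without this library and after a correction for length and GC content.

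The markers of macrophages were abundant in every library (summed FPKM of 7 markers of 11609 to 12553 in WT and 10440 to 14367 in PGRN KO), although among them Csf1r fell and Mertk rose (adjusted p 0.0178 and 0.0064 by limma). The 5 markers of resident peritoneal macrophages summed to at most 12.4 FPKM in WT and at least 16.7 FPKM in PGRN KO, and Icam2 and Lrg1, 2 of the 3 tested, rose (adjusted p 0.00914 and 0.0196 by limma). Of the others, Gata6 lay between 3.78 and 5.07 FPKM, while Timd4 did not exceed 0.204 FPKM and Cd209b was at 0 in 5 of 6 libraries. Counted over these 5 markers, 2 were higher in every PGRN KO library and 1 was lower in every one. Of the other cell types that the samples could hold, B cells had low markers that were higher in PGRN KO for 7 of 7 genes, with a summed level of 5.95 to 7.14 FPKM in WT and 14.0 to 15.8 FPKM in PGRN KO. Mast cell markers, 3 of 5 higher in every PGRN KO library, summed to 8.37 to 12.0 FPKM in WT and 13.5 to 18.5 FPKM in PGRN KO. NK cell markers summed to 0.443 to 0.641 and 0.753 to 1.32 FPKM, T cell markers, 3 of 5 higher in every PGRN KO library, to 2.35 to 2.72 and 3.60 to 5.44 FPKM, and dendritic cell markers, 3 of 5 lower in every PGRN KO library, to 27.3 to 34.6 and 15.8 to 19.3 FPKM. Only 1 of the 5 dendritic cell markers had enough signal to be tested. The highest value of a single dendritic cell marker was 32.4 FPKM, so this sum rested mostly on 1 gene. Neutrophil markers did not exceed a sum of 0.534 FPKM, and Ly6g and Elane were at 0 in every library, as was the dendritic cell marker Cd209a. The part of these cells in the receptor values was not tested.

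Among the members, the inhibitory receptor was the most abundant by FPKM, followed by Fcgr3. FPKM is scaled by the length of the gene model, which has 5790 bases for Fcgr2b and 1736 for Fcgr3. Whether the expressed transcripts have that length was not tested, so levels of different genes can be set side by side only roughly. In the WT libraries the mean levels were 133 ± 0.990 FPKM for Fcgr2b, 107 ± 2.71 FPKM for Fcgr3, 7.95 ± 0.405 FPKM for Fcgr1, 7.05 ± 0.520 FPKM for Fcgr4 and 1.04 ± 0.112 FPKM for Fcgrt (SD, n = 3 for each). Fcgr1 was above Fcgr4 in each WT library, although their ranges of 7.50 to 8.26 and 6.46 to 7.42 FPKM lay close together. By mean level over all libraries, Fcgr2b and Fcgr3 stood at the 95.6th and 94.3rd percentile of the tested genes, Fcgr4 and Fcgr1 at the 59.4th and 55.9th, and Fcgrt at the 9.13th.

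No member passed the threshold between genotypes. In limma on log2(FPKM + 1), fitted over all 8882 tested genes, 0 of the 5 had a Benjamini-Hochberg adjusted p below 0.05, where 24.2% of all tested genes did (10.4% higher and 13.8% lower in PGRN KO). Fcgr3 and Fcgrt, 2 of the 5, had an unadjusted p below 0.05, as did 39.1% of all tested genes. Voom, the limma method for counts that was run here on fragments recovered from the FPKM values, also called 0 of 5, beside 25.5% of all tested genes. The genotypes did not overlap for Fcgr3, Fcgr2b and Fcgrt, 3 of the 5, where 48.8% of tested genes did not overlap. By the threshold the share of members was below that of all genes. Without PGRN KO replicate 6, limma called Fcgr1 and Fcgr3, 2 of the 5, both lower in PGRN KO, beside 41.3% of all tested genes. With the correction for length and GC content, it called Fcgr3, lower, and Fcgrt, higher, again 2 of the 5, beside 33.1% of all tested genes. In bulk RNA, fewer cells that express a receptor and less RNA of it per cell cannot be told apart.

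**Figure D1:**
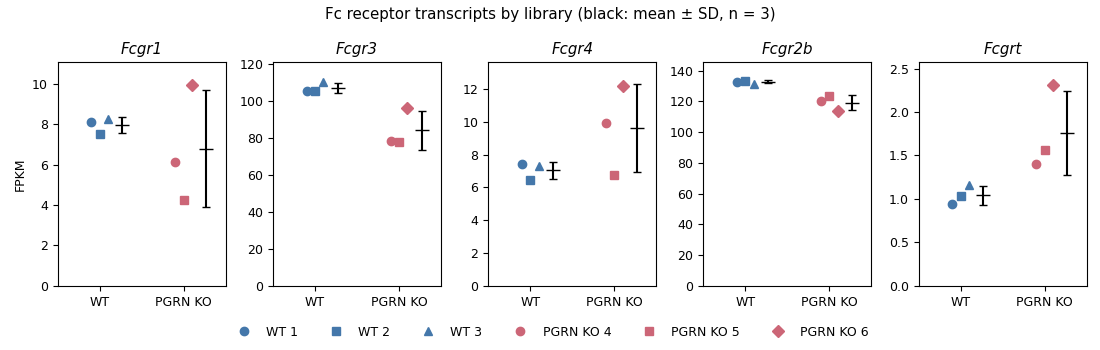
FPKM of each receptor gene in each library, each panel on its own linear axis from 0, with WT in blue, PGRN KO in red, and the mean ± SD of the 3 libraries in black. All PGRN KO libraries lie below WT for Fcgr3 and Fcgr2b and above WT for Fcgrt, while PGRN KO replicate 6 (diamond) is the highest library for Fcgr1 (9.95 FPKM) and Fcgr4 (12.2 FPKM).

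Fcgr3, the low-affinity activating receptor for IgG immune complexes, was lower in PGRN KO in every library. Fcgr3 (ENSMUSG00000059498, GRCm38 chr1:171051174-171064935, minus strand) was at 105, 105 and 110.0 FPKM in WT and at 78.3, 77.7 and 96.1 FPKM in PGRN KO. The groups did not overlap, and PGRN KO replicate 6 was the closest to WT. The PGRN KO mean was 21.4% below the WT mean, a log2 fold change of -0.35 (SE 0.11, 95% interval -0.61 to -0.09, adjusted p 0.0569 in limma). The call changed with the setting. When PGRN KO replicate 6 was left out the log2 fold change was -0.45 and the limma adjusted p 0.00142, and with the correction for length and GC content the values were -0.43 and 0.00248. With all libraries it also passed at a mean FPKM of at least 5, after quantile normalization and with sample quality weights (limma adjusted p 0.0495, 0.0243 and 0.000494). Fcgr3 was not called in 12 of the 18 alternatives. Among these were voom (adjusted p 0.0527), the TPM scale, the sum of fragments as library size and no filter on low values. The call was also absent when any single library other than PGRN KO replicate 6 was left out (highest adjusted p 0.173 over the limma alternatives). Between 2354 and 3445 fragments stood behind each value, so that counting error alone gives a coefficient of variation of about 1.88%, against 2.54% observed between WT libraries and 12.4% between PGRN KO libraries.

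Fcgr1, the high-affinity receptor that binds single IgG molecules, was spread widely in the PGRN KO libraries. Fcgr1 (ENSMUSG00000015947, GRCm38 chr3:96282909-96293969, minus strand) was at 8.10, 7.50 and 8.26 FPKM in WT and at 6.16, 4.24 and 9.95 FPKM in PGRN KO. PGRN KO replicates 4 and 5 lay below all WT libraries and PGRN KO replicate 6 above them, so that the groups overlapped. The coefficient of variation was 5.09% in WT, near the counting error of 5.54%, and 42.8% in PGRN KO. The log2 fold change was -0.27 (95% interval -0.85 to 0.31, limma adjusted p 0.455). Leaving out PGRN KO replicate 6 gave -0.55 with a limma adjusted p of 0.0213, and leaving out PGRN KO replicate 5 gave -0.016. With the correction for length and GC content, which used all libraries, the gene was not called (log2 fold change -0.33, adjusted p 0.217 by limma).

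Fcgr4, an activating receptor of intermediate affinity for IgG2 subclasses, was the only activating receptor with a positive estimate. Fcgr4 (ENSMUSG00000059089, GRCm38 chr1:171018920-171029761, plus strand) was at 7.42, 6.46 and 7.28 FPKM in WT and at 9.93, 6.77 and 12.2 FPKM in PGRN KO. PGRN KO replicates 4 and 6 lay above all WT libraries, and PGRN KO replicate 5 lay within the WT range. The log2 fold change was 0.37 (95% interval -0.08 to 0.81, limma adjusted p 0.192). It was 0.20 without PGRN KO replicate 6, 0.30 with the correction for length and GC content (limma adjusted p 0.332 and 0.148) and 0.58, with a limma adjusted p of 0.0311, without PGRN KO replicate 5. With a mean of 180.3 fragments per library, counting error gives a coefficient of variation of 7.45%, close to the 7.37% observed in WT and below the 28.2% in PGRN KO.

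Fcgr2b was lower in every PGRN KO library, by a small amount. Fcgr2b (ENSMUSG00000026656, GRCm38 chr1:170958617-170976547, minus strand) was at 133, 134 and 132 FPKM in WT and at 120.0, 124 and 114 FPKM in PGRN KO. The groups did not overlap, and the PGRN KO mean was 10.2% below the WT mean. The log2 fold change of -0.16 (95% interval -0.35 to 0.04) did not pass the test (limma adjusted p 0.208), nor did it in any of the 18 alternative settings, where the lowest adjusted p was 0.0503 with sample quality weights. It was -0.12 without PGRN KO replicate 6, and with the correction for length and GC content -0.07. The antisense gene Gm38204 overlaps 155 exon bases of Fcgr2b, 2.68% of its exon sequence. The sources used here do not say if fragments were counted by strand.

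Fcgrt had the lowest level of the 5 and was higher in every PGRN KO library. Fcgrt (ENSMUSG00000003420, GRCm38 chr7:45092990-45103851, minus strand) was at 0.938, 1.03 and 1.16 FPKM in WT and at 1.40, 1.56 and 2.31 FPKM in PGRN KO. The groups did not overlap, and PGRN KO replicate 6 was highest. The PGRN KO mean was 68.5% above the WT mean, or 1.48 against 1.04 FPKM without PGRN KO replicate 6. The log2 fold change on log2(FPKM + 1), which understates changes at such levels, was 0.42 (95% interval 0.09 to 0.75, limma adjusted p 0.0702), and voom gave 0.71 (95% interval 0.11 to 1.31, adjusted p 0.0798). Without PGRN KO replicate 6 the limma value was 0.28 (adjusted p 0.0579), and with the correction for length and GC content it was 0.30 (adjusted p 0.0341). Each value rested on 32 to 84 fragments. B2m, the light chain of this receptor, was at 3425 to 3909 FPKM in WT and 3618 to 4099 FPKM in PGRN KO (a log2 fold change of 0.04, adjusted p 0.825 by limma), and its FPKM was 1773 to 3977 times that of Fcgrt across the 6 libraries.

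**Figure D2:**
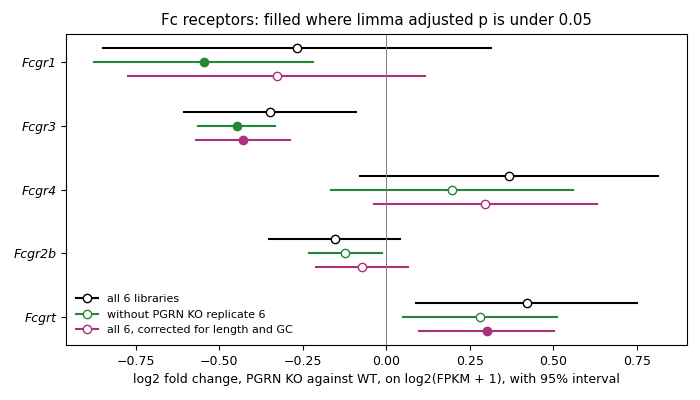
Log2 fold change of each receptor (PGRN KO against WT, on log2(FPKM + 1), points with 95% intervals from limma) in all 6 libraries, without PGRN KO replicate 6, and in all 6 after the correction for length and GC content. Filled points have an adjusted p below 0.05: none in black, Fcgr1 and Fcgr3 in green, Fcgr3 and Fcgrt in purple.

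With a single value per gene, 3 libraries against 3 cannot give a two-sided exact permutation p below 0.1. That smallest value was reached by Fcgr3, Fcgr2b and Fcgrt, and the exact permutation p was 0.3 for Fcgr4 and 0.5 for Fcgr1 (n = 3 per genotype).

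To examine the balance between activating and inhibitory receptors, the FPKM of each activating receptor was divided by that of Fcgr2b within each library, where the scaling of the library cancels. The ratio of Fcgr3 to Fcgr2b was 0.793, 0.788 and 0.836 in WT and 0.652, 0.629 and 0.845 in PGRN KO. PGRN KO replicates 4 and 5 lay below WT, and PGRN KO replicate 6 lay above it. On the log2 scale PGRN KO minus WT was -0.20 (two-sided exact permutation p = 0.4, Benjamini-Hochberg adjusted 0.6 over the 3 ratios, n = 3 per genotype). The correction for length and GC content moved this difference to -0.36, because in PGRN KO replicate 6 the fitted deviation was 0.23 for Fcgr3 and -0.14 for Fcgr2b. The corrected log2 ratios were -0.23, -0.27 and -0.20 in WT and -0.56, -0.59 and -0.62 in PGRN KO. The groups then no longer overlapped, and all PGRN KO libraries lay close together. By uncorrected level, 48.8% of all tested genes did not overlap, and the corrected ratio was not tested. Without PGRN KO replicate 6 the uncorrected difference was -0.33.

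The ratio of Fcgr1 to Fcgr2b was 0.0610, 0.0561 and 0.0628 in WT and 0.0513, 0.0344 and 0.0874 in PGRN KO. The groups overlapped, with a log2 difference of -0.16 (exact permutation p = 0.7, adjusted 0.7, n = 3). This difference turned to 0.16 without PGRN KO replicate 5, and it was -0.51 without PGRN KO replicate 6 and -0.30 with the correction for length and GC content. The ratio of Fcgr4 to Fcgr2b was 0.0559, 0.0484 and 0.0553 in WT and 0.0827, 0.0548 and 0.107 in PGRN KO. Here PGRN KO replicates 4 and 6 were above WT and PGRN KO replicate 5 within it, and the log2 difference was 0.57 (exact permutation p = 0.3, adjusted 0.6, n = 3), against 0.34 without PGRN KO replicate 6 and 0.41 with the correction. The estimates against Fcgr2b were thus negative for Fcgr3 and Fcgr1 and positive for Fcgr4, and the mean of the 3 log2 ratios was -2.87 ± 0.077 (SD, n = 3) in WT and -2.80 ± 0.457 (SD, n = 3) in PGRN KO, given with no test. PGRN KO minus WT of this mean was 0.07 with all libraries and -0.17 without PGRN KO replicate 6.

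**Figure D3:**
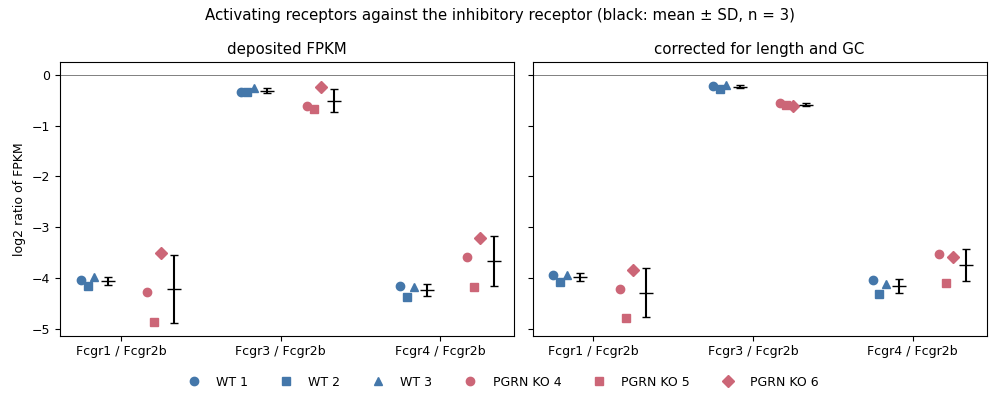
Log2 ratio of each activating receptor to the inhibitory receptor Fcgr2b in each library (WT blue, PGRN KO red, mean ± SD in black), from the deposited FPKM on the left and after the correction for length and GC content on the right. For Fcgr3 the PGRN KO libraries spread from -0.67 to -0.24 on the left and lie between -0.62 and -0.56 on the right, below the WT libraries.

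By summed FPKM, the 4 surface receptors made up 254, 253 and 257 FPKM in WT and 214, 212 and 232 FPKM in PGRN KO, lower in every PGRN KO library. Fcgr3 contributed 41.5%, 41.6% and 42.8% of this sum in WT and 36.5%, 36.6% and 41.4% in PGRN KO. Fcgr4 contributed 2.93%, 2.56% and 2.83% in WT and 4.63%, 3.19% and 5.24% in PGRN KO. For both of these shares the genotypes did not overlap, in opposite directions. They overlapped for the shares of Fcgr2b (51.2% to 52.8% and 49.0% to 58.2%) and Fcgr1 (2.97% to 3.21% and 2.00% to 4.29%). For Fcgr3 the gap was narrow, with PGRN KO replicate 6 at 41.4% and the lowest WT library at 41.5%. PGRN KO minus WT was -3.79 percentage points for Fcgr3 and 1.58 for Fcgr4, against -5.41 and 1.14 without PGRN KO replicate 6. By level, 48.8% of all tested genes did not overlap. The shares are parts of the same sum, were not corrected for length and GC content, and were not tested.

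**Figure D4:**
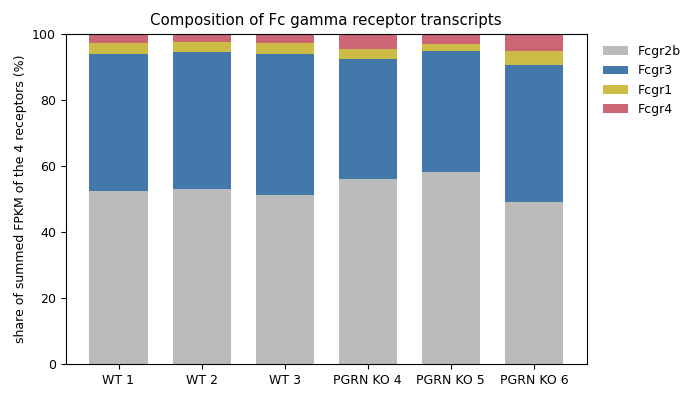
Share of each of the 4 surface receptors in their summed FPKM, in percent, as stacked bars for each library. Fcgr2b and Fcgr3 together hold most of the sum in every library, and the Fcgr4 share is 2.56% to 2.93% in WT and 3.19% to 5.24% in PGRN KO.

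The order of the scarce activating receptors also differed between genotypes. Fcgr4 stood below Fcgr1 in every WT library, with ratios of 0.916, 0.862 and 0.881, and above it in every PGRN KO library, with ratios of 1.61, 1.60 and 1.22. The pair was singled out after its values were seen, and the difference was therefore not tested. It kept its direction after the correction for length and GC content, with log2 ratios of -0.11, -0.24 and -0.16 in WT and 0.69, 0.69 and 0.26 in PGRN KO. PGRN KO replicate 5, which had the lowest Fcgr4 of its group, also had the lowest Fcgr1 of all libraries.

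The windows before the start sites of these receptors differ in motifs for the interferon pathways, and Fcgr1 and Fcgr4 are shown for that reason. In the 250 bases before the RefSeq start (GRCm38.p6), Fcgr1 held a gamma-activated sequence (pattern TTCNNNGAA, which reads the same on both strands) from base -109 to -101, and Fcgr4 held an interferon-stimulated response element core (GAAA and GAAA with 2 bases of any kind between them, searched on both strands) from base -73 to -64. Both also held the PU.1 core GAGGAA on the opposite strand, where it reads TTCCTC. The motifs do not overlap, and they stand in capitals, 5′ to 3′ on the strand of the gene.
Fcgr1, chr3:96293970-96294219, minus strand: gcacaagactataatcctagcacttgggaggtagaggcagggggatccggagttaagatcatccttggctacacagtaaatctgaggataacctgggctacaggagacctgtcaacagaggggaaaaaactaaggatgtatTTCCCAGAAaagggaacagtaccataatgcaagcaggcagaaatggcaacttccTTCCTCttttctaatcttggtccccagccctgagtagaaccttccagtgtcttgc
Fcgr4, chr1:171018676-171018925, plus strand: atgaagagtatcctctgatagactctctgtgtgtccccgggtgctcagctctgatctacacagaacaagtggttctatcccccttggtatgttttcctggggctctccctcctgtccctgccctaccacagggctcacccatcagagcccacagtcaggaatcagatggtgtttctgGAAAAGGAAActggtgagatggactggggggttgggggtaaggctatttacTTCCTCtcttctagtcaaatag
Of 32817 windows of the same length, 7.01% held the gamma-activated pattern, 2.97% the interferon-stimulated core and 23.3% the PU.1 core on either strand. Fcgr3 held the PU.1 core only, and the windows of Fcgr2b and Fcgrt held none of these letters. A match describes the letters of the window and is not evidence of binding.

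Genes that are known to set Fc gamma receptor levels were examined next. Interferon gamma raises activating receptors, IL-4 raises Fcgr2b, and C5a acts through C5ar1 on the balance of both. Of 21 such genes, 19 were tested and 4 passed, all lower in PGRN KO (21.1%, against 24.2% of all genes), with a median log2 fold change of -0.17 against -0.03 over all tested genes. Without PGRN KO replicate 6 the count was 7, all lower (36.8%, against 41.3% of all genes).

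Interferon gamma itself (Ifng) was at 8.73 to 10.8 FPKM in WT and 7.26 to 11.5 FPKM in PGRN KO (limma adjusted p 0.908), and neither Ifngr1 nor Ifngr2 passed (limma adjusted p 0.439 and 0.580). Gm49751, on the same strand, overlaps 25.9% of the exon bases of Ifng, so the level of Ifng is uncertain to that extent. Irf8, a myeloid interferon regulatory factor, fell from 52.7, 53.9 and 57.5 FPKM to 41.5, 29.3 and 39.9 FPKM (log2 fold change -0.57, adjusted p 0.0293 by limma). This call was lost with no filter on low values and when any single WT library was left out (highest adjusted p 0.102 over the limma alternatives). Spi1, which encodes PU.1, was at 69.8 to 81.5 FPKM in WT and 45.4 to 69.5 FPKM in PGRN KO, lower in every library without passing the test (limma adjusted p 0.0834).

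Of the IL-4, IL-10 and C5a inputs, Il4ra, Il10 and C5ar1 passed. Il4ra, the IL-4 receptor chain, fell from 58.8, 58.5 and 59.9 FPKM to 41.4, 42.3 and 45.8 FPKM (log2 fold change -0.44, adjusted p 0.0117 by limma). It lost its call when any single WT library was left out (highest adjusted p 0.0708 over all limma alternatives), and 9.51% of its exon bases overlap Gm44876 on the opposite strand. Il10, an anti-inflammatory cytokine, fell from 229, 289 and 176 FPKM to 75.1, 68.0 and 88.6 FPKM (log2 fold change -1.55, adjusted p 0.0034 by limma). C5ar1, the C5a receptor, fell from 53.3, 56.9 and 52.8 FPKM to 29.1, 27.8 and 28.4 FPKM (log2 fold change -0.91, adjusted p 0.0014 by limma). Il10 and C5ar1 kept their calls in all 18 alternative settings. Of the TGF-beta genes, 0 of 4 passed in limma, 0 had an unadjusted p below 0.05 and 0 passed in voom. Of all tested genes, 24.2%, 39.1% and 25.5% did.

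Downstream of the receptors, the ITAM adaptor Fcer1g did not pass the test. It was at 690.2, 705 and 658 FPKM in WT and at 680.0, 651 and 916 FPKM in PGRN KO (a log2 fold change of 0.11, adjusted p 0.605 by limma), with PGRN KO replicate 5 just below and PGRN KO replicate 6 well above the WT range. For each unit of summed activating receptor there were 5.71, 5.92 and 5.24 units of Fcer1g in WT and 7.20, 7.34 and 7.75 units in PGRN KO, with no overlap between genotypes. By level, 48.8% of all tested genes did not overlap. PGRN KO minus WT of this ratio was 1.81 with all libraries and 1.65 without PGRN KO replicate 6. The gene model of Fcer1g has 874 bases, and the ratio was not corrected for length and GC content. It was chosen after its values were seen and was not tested.

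In the list of 48 signalling genes below the receptors, 45 were tested and 8 passed, 3 higher and 5 lower in PGRN KO. This share of 17.8% was below the 24.2% of all tested genes, and the median log2 fold change was -0.13 against -0.03 over all genes. Without PGRN KO replicate 6, 21 of 45 passed (6 higher and 15 lower) beside 41.3% of all genes, and with the correction for length and GC content 13 passed (6 higher and 7 lower) beside 33.1%.

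Vav1, an exchange factor that activates Rac at the phagocytic cup, had the largest fall among the tested genes of the list. It went from 55.4, 53.8 and 58.0 FPKM in WT to 25.2, 24.6 and 28.0 FPKM in PGRN KO (a log2 fold change of -1.08, adjusted p 0.00119 by limma). Its relative Vav3 fell from 4.69, 4.42 and 4.13 FPKM to 3.40, 2.81 and 1.93 FPKM (log2 fold change -0.56, adjusted p 0.0405 by limma). The GTPases they act on, Rac1, Rac2 and Cdc42, did not pass (limma adjusted p 0.973, 0.356 and 0.157), and neither did Was or Dock2. Daglb, on the opposite strand, overlaps 51.4% of the exon bases of Rac1, so the level of Rac1 is uncertain if strand was not used in counting.

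Plcg2, the phospholipase that makes second messengers after Syk, fell from 18.8, 18.2 and 19.3 FPKM to 11.3, 11.6 and 10.2 FPKM (log2 fold change -0.72, adjusted p 0.00309 by limma). Of the phosphoinositide 3-kinase genes, the catalytic subunit Pik3cd rose from 4.54, 4.58 and 4.38 FPKM to 8.40, 6.93 and 7.98 FPKM (log2 fold change 0.67, adjusted p 0.00509 by limma). Pik3r5, the regulatory subunit that serves Pik3cg, fell from 27.4, 28.7 and 24.5 FPKM to 16.9, 15.4 and 12.3 FPKM (log2 fold change -0.82, adjusted p 0.00724 by limma). Pik3cg, Pik3cb, Pik3r1, Prkcd, Prkce, Pld1, Pla2g4a and Sphk1 did not pass, with log2 fold changes of -0.43 to 0.11. Vav1, Plcg2, Pik3cd and Pik3r5 kept their calls in all 18 alternative settings.

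Among the kinases, Syk fell by 0.48 on the log2 scale (adjusted p 0.0239 by limma) and the Tec family kinase Btk rose from 4.82, 4.66 and 4.98 FPKM to 6.11, 6.04 and 6.27 FPKM (log2 fold change 0.29, adjusted p 0.0373 by limma), while Tec did not pass. Btk is also expressed by B cells, whose markers were higher in PGRN KO, and their part in it was not tested. Of the 4 Src family kinases examined (Lyn, Fgr, Src and Fyn) 0 passed in limma and 0 in voom, and 1 had an unadjusted p below 0.05, with log2 fold changes of -0.30 for Src to -0.03 for Lyn. Of the 8 adaptors (Lat2, Lat, Lcp2, Blnk, Gab2, Grb2, Shc1 and Crkl) 0 passed in limma and 2 in voom, and 4 had an unadjusted p below 0.05, with log2 fold changes of -0.43 to 0.41. Over all tested genes the shares were 24.2% in limma, 25.5% in voom and 39.1% at an unadjusted p below 0.05. Rfc2, on the opposite strand, overlaps 36.3% of the exon bases of Lat2. Without PGRN KO replicate 6 the counts were 0 of 4 Src family kinases, 2 of which had an unadjusted p below 0.05, and 5 of 8 adaptors, beside 41.3% of all genes. The calls of Syk, Btk and Vav3 were lost when any single WT library was left out, that of Btk also without PGRN KO replicate 4 or 5 and that of Vav3 also without PGRN KO replicate 5. These 3 calls were also lost with no filter on low values and on the TPM scale, those of Syk and Vav3 with the sum of fragments as library size, and that of Syk after quantile normalization (highest adjusted p over the limma alternatives of 0.117, 0.145 and 0.137).

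Of the 11 inhibitors of the pathway that were examined, Ptpn6 alone passed (9.09%, against 24.2% of all tested genes). Ptpn6, which encodes the phosphatase SHP-1, rose from 20.3, 19.6 and 20.9 FPKM to 26.6, 25.4 and 36.4 FPKM (log2 fold change 0.50, adjusted p 0.0428 by limma). It lost its call with no filter on low values and without PGRN KO replicate 4 or any single WT library (highest adjusted p 0.140 over the limma alternatives), and 6.96% of its exon bases overlap Gm20531 on the opposite strand. The partner of Fcgr2b, Inpp5d, was at 11.9, 11.5 and 12.5 FPKM in WT and 9.81, 10.4 and 8.56 FPKM in PGRN KO, lower in every PGRN KO library without passing the test (log2 fold change -0.30, adjusted p 0.0669 by limma). Inppl1, Ptpn11, Dok1, Dok2, Dok3, Csk, Pag1, Cbl and Cblb did not pass, with log2 fold changes of -0.83 for Cbl to 0.46 for Dok3. Gm10602, on the opposite strand, overlaps 18.8% of the exon bases of Inppl1. When PGRN KO replicate 6 was left out, 5 of the 11 passed, 3 higher and 2 lower (45.5%, against 41.3% of all genes).

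**Figure D5:**
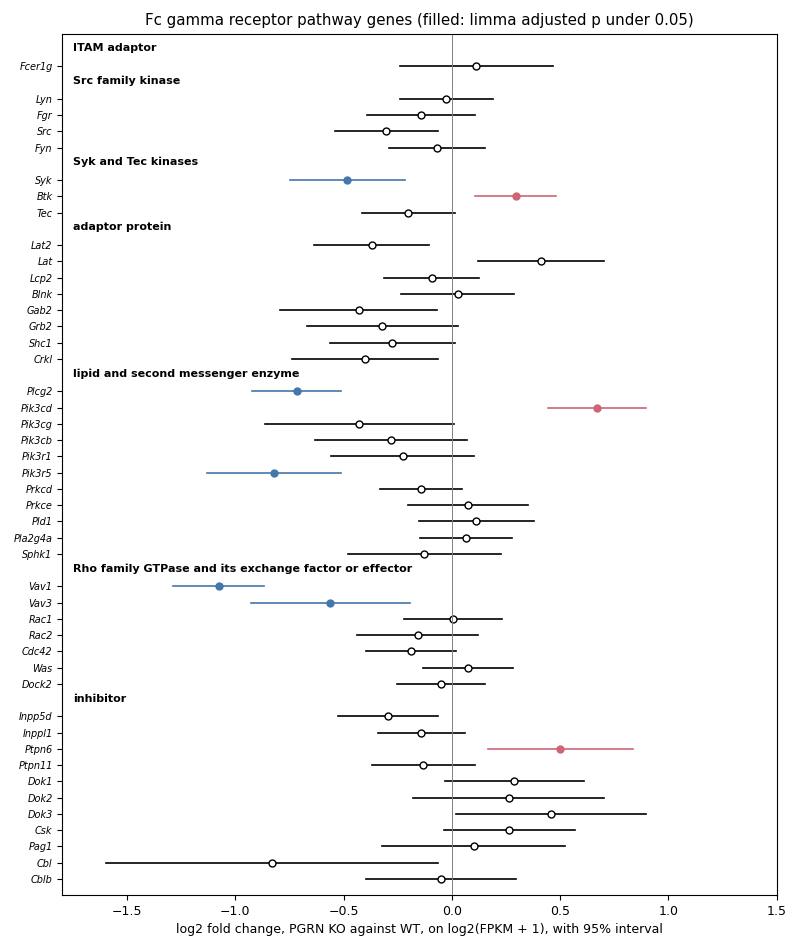
Log2 fold change (PGRN KO against WT, on log2(FPKM + 1), with 95% intervals from limma) of the 45 tested pathway genes, grouped by role, with genes past the threshold filled in blue (lower) or red (higher). The 8 filled genes lie among the kinases (Syk, Btk), lipid enzymes (Plcg2, Pik3cd, Pik3r5), exchange factors (Vav1, Vav3) and inhibitors (Ptpn6), and the Src family and adaptor rows hold none.

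Of 14 genes for other immunoglobulin receptors and the light chain B2m, 4 had enough signal to be tested and 2 passed, both higher in PGRN KO, beside 24.2% of all tested genes in either direction and 10.4% higher. Trim21, a cytosolic receptor for antibody on particles that have entered the cell, rose from 12.8, 13.4 and 10.9 FPKM to 26.8, 22.4 and 26.9 FPKM (log2 fold change 0.98, adjusted p 0.00294 by limma). Fcmr, the receptor for the Fc part of IgM, rose from 0.310, 0.506 and 0.511 FPKM to 1.03, 2.04 and 2.30 FPKM (log2 fold change 0.92, adjusted p 0.0162 by limma). All WT values of Fcmr lay below the mean FPKM of 1 needed for testing, so the gene was tested only because of its PGRN KO values. Entry of this kind favours a higher call, and the count of 2 includes it. The call of Fcmr was lost with no filter on low values and when any single WT library was left out (highest adjusted p 0.0697). Fcmr is carried by B cells, whose markers were also higher in PGRN KO, and their part in it was not tested. Fcrlb, a relative of the Fc receptors whose gene lies near them on chromosome 1, ranked in level between Fcgr3 and the scarcer receptors, at 45.2, 52.1 and 43.8 FPKM in WT and 64.3, 52.0 and 70.8 FPKM in PGRN KO (a log2 fold change of 0.39, adjusted p 0.0779 by limma). The subunits of the high-affinity IgE receptor other than Fcer1g were near 0, with Fcer1a at most at 0.405 FPKM and Ms4a2 at 0 in every library.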

How the data were processed

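Polyadenylated RNA of 6 libraries was sequenced in pairs. The authors aligned reads, counted fragments per gene and deposited FPKM (fragments per kilobase of gene model, scaled by library). The submitters' processing notes name HISAT2 2.0.5, featureCounts 1.5.0-p3 and DESeq2 1.20.0, while the methods of the study name HTSeq. Whole fragments were recovered from the FPKM of 100.0% of values (within 0.001 of a step), giving 15996786 to 17551619 fragments per library. The gene identifiers were matched to GENCODE on GRCm38 (99.8% found, 98.3% of them with the same coordinates).

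Genes whose mean FPKM reached 1 were tested with limma 3.58.1 in R 4.3.3 on log2(FPKM + 1), with a mean-variance trend, two-sided, with Benjamini-Hochberg adjustment over all tested genes and a threshold of 0.05. DESeq2 is a model for counts and was not used. The scripts were tested on simulated data. The correction for length and GC content subtracted from each library a loess fit (span 0.5) of its deviation from the mean over all libraries. Voom on the recovered fragments, other pseudocounts, filters and scalings, quality weights and leaving out each library were alternatives.

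The receptors and the lists were chosen with earlier results of these data known. Named genes were the 5 receptors, Grn, every tested pathway gene by role, the members of the other lists past the threshold, and the 3 genes whose centred log2(FPKM + 1) profile lay closest to each receptor, outside predicted models. Some genes of the lists are not reported here and were left out of the counts. Other genes named were chosen after their values were seen. Shared words, reading frames and identities came from GENCODE transcripts, start-site windows from RefSeq (GRCm38.p6), where all 5 receptors matched by symbol.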

Additional observations from a re-analysis of the deposited data

How the results depend on the processing

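No paired analysis was run, because the labels name no pairs of libraries across the genotypes. No receptor changed sign in any limma or voom alternative (18 each, 17 for Fcgrt, which was not tested at a mean FPKM of at least 5), and no alternative gave a call to Fcgr2b. With quality weights, which gave PGRN KO replicate 6 a weight of 0.0899, Fcgr1 (log2 fold change -0.49), Fcgr3 (-0.43) and Fcgrt (0.32) passed, 3 of 5. With the length and GC correction Fcgr3 (-0.43) and Fcgrt (0.30) passed, 2 of 5, and with that replicate left out as well, 3 of 5 did (Fcgr1 -0.53, Fcgr3 -0.43, Fcgrt 0.29). Fcgr3 passed alone at a mean FPKM of at least 5 (-0.35) and after quantile normalization (-0.31), and Fcgrt alone with the sum of fragments as library size (0.48), 1 of 5 each time. With 1 library left out, the log2 fold change ranged from -0.55 to -0.016 for Fcgr1, -0.45 to -0.30 for Fcgr3, 0.20 to 0.58 for Fcgr4, -0.18 to -0.12 for Fcgr2b and 0.28 to 0.51 for Fcgrt, with 0 to 2 receptors past the threshold. The log2 difference of Fcgr1 to Fcgr2b then ranged from -0.51 to 0.16, that of Fcgr3 to Fcgr2b from -0.33 to -0.12, and that of Fcgr4 to Fcgr2b from 0.34 to 0.83. The pathway count of 8 became 4 with no filter, 24 with weights, 13 with the correction, 20 with the correction without PGRN KO replicate 6, and 4 to 21 with 1 library left out. The regulator count of 4 became 3 with no filter, 6 with the correction, 7 with weights and 2 to 7 with 1 library left out. The count of 2 other immunoglobulin receptors became 1 with no filter, 1 at a mean FPKM of at least 5, and 1 to 3 with 1 library left out. It became 3 on the TPM scale, with the sum of fragments as library size, after quantile normalization and with weights. The cause of these shifts was not tested.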

Other observations

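The genes whose profile over the 6 libraries lay closest to each receptor, by the root mean square distance of centred log2(FPKM + 1) values among 8080 genes, differed from member to member. For Fcgr1 they were Ifi27l2a (distance 0.0894), H2-DMb1 (0.102) and Nop53 (0.118). Ifi27l2a, an interferon-inducible gene, was at 90.2, 101 and 96.7 FPKM in WT and at 80.9, 60.0 and 118 FPKM in PGRN KO, lowest in PGRN KO replicate 5 and highest in PGRN KO replicate 6, as Fcgr1 was. H2-DMb1, which helps load peptides on MHC class II, was at 16.7, 13.9 and 15.2 FPKM in WT and at 11.8, 7.86 and 15.8 FPKM in PGRN KO. Nop53 was at 29.8, 30.4 and 31.3 FPKM in WT and at 23.6, 21.5 and 41.2 FPKM in PGRN KO. It too was lowest in PGRN KO replicate 5 and highest in PGRN KO replicate 6, the library that stood apart by gene length. For Fcgr4 the closest were Gimap4 (0.0769), Vps72 (0.0773) and Phldb3 (0.0803). For Fcgr3 they were Armc5 (0.0194), Apba3 (0.0258) and Spg21 (0.0262), for Fcgr2b Ddx10 (0.0130), Sf3a1 (0.0172) and Canx (0.0217), and for Fcgrt Dnajc19 (0.0371), Slc35b1 (0.0375) and Pdzd11 (0.0386). These distances describe 6 libraries and were not tested.

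Fcgr2b, Fcgr4 and Fcgr3 lie within 106319 bases of chromosome 1 (GRCm38 chr1:170958617-171064935). In this span and 100 kilobases to either side, 8 of 20 genes were tested. Among these 8 were Fcgr2b, Fcgr3 and Fcgr4 themselves and Gm38204, which overlaps Fcgr2b. Of the 8, 1 passed, beside 24.2% of all tested genes. That gene was Atf6, a transcription factor of the endoplasmic reticulum stress response, which fell by 0.49 on the log2 scale (adjusted p 0.0429 by limma). Sdhc, at the other end of the window, was at 0.19 on that scale (adjusted p 0.161 by limma). Neighbouring genes thus had estimates of either sign, as the receptors did.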
